A study of Mus musculus with 5 samples.

Results

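The comparison set the immune cells of a B16-F10 melanoma treated with an IL15 superagonist against those of one treated with an anti-PD1 antibody, each given as a single agent. B16-F10 is a mouse melanoma line. Cells were assigned by the treatment label of their library, and barcodes with at most 10% mitochondrial unique molecular identifiers (UMIs, each marking 1 captured RNA molecule) were taken, which gave 13979 of the 37074 such barcodes of the series. The anti-PD1 library held 7292 of them and the IL15 superagonist library 6687. Both libraries came from mice given 500000 tumor cells under the skin, with tumors collected on day 11, and both were sorted for live CD45+ cells before 5′ single-cell RNA sequencing. There was 1 library per treatment. The labels give no dose, schedule, antibody clone, mouse strain, composition of the superagonist or number of mice behind a library, and their wording places treatment after tumor resection. No test between treatments was therefore possible: intervals below are exact 95% intervals for counting error only, and a gene counts as differing when its level differed by 2-fold or more between the libraries.

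IL-15 is a cytokine that is presented on the IL-15 receptor alpha chain of one cell to the shared beta chain (Il2rb) and common gamma chain (Il2rg) of another, mainly NK cells and CD8 T cells, in which it drives survival, division and cytotoxic maturation through STAT5. PD-1, the product of Pdcd1, damps T-cell receptor and CD28 signals when it binds PD-L1 (Cd274) on tumor or myeloid cells, and antibodies to it release that brake on T cells already exposed to antigen. B16-F10 is known as a poorly immunogenic tumor, often with a limited response to PD-1 blockade alone.

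Barcodes were classed by the UMIs of a few defining genes: Cd3e or Cd3d with Cd8a or Cd8b1 for CD8 T, with Cd4 for CD4 T and with Foxp3 for regulatory T cells (Treg); Ncr1 without Cd3e and Cd3d for NK; the complement genes C1qa, C1qb and C1qc for macrophages; Ly6c2 and Chil3 for monocytes; Cd209a for type 2 and Xcr1 for type 1 conventional dendritic cells (cDC2 and cDC1). The libraries held 50251271 UMIs (anti-PD1, median 5667 a barcode) and 39479966 UMIs (IL15 superagonist, median 4279). Barcodes with transcripts of more than 1 lineage were removed, 4.99% and 3.01%, which left 6928 and 6486. The libraries shared 62 barcode sequences, 0.915% of those in the IL15 superagonist library, against 0.828% to 1.19% for the other pairs of libraries in the series. Markers that the rules did not use were highest in the classes of their name for T cells, macrophages and monocytes, and separated NK and cDC2 less well. The summed level of 5 further T-cell genes in CD8 T was 2453 CPM (UMIs of a gene per 1000000 UMIs of the class) in the anti-PD1 and 2296 CPM in the IL15 superagonist library, against 9.08 and 6.07 CPM in macrophages. Of 6 further macrophage genes it was 4435 and 5408 CPM in macrophages, above every other class, and of 5 further monocyte genes 14296 and 16434 CPM in monocytes, likewise. The 8 further NK genes, of which Fcer1g and Tyrobp are shared with myeloid cells, stood at 7360.4 and 10026 CPM in NK barcodes but also at 8293 and 6785 CPM in macrophages. The 6 further cDC2 genes, 3 of them of the MHC class II pathway, stood at 49746 and 51765 CPM in cDC2 and at 49685 and 55901 CPM in cDC1, while the 6 further cDC1 genes stood at 518 and 425 CPM in cDC2 and 2291 and 2576 CPM in cDC1. CD4 T barcodes held the macrophage genes at 138 CPM in the anti-PD1 and 1629.7 CPM in the IL15 superagonist library. In the IL15 superagonist library the monocyte rule also took in lymphocytes with Ly6c2, so monocyte genes are given after barcodes with transcripts of another lineage were left out (myeloid barcodes with 2 or more UMIs of Nkg7, Thy1, Il2rb and Cd3g together or of Siglech, and T and NK barcodes with 3 or more UMIs of Lyz2 and the C1q genes or, in NK, 2 or more of further T-cell genes; 132 of 574 IL15 superagonist and 82 of 1179 anti-PD1 monocyte barcodes). The same step moved 78 of 867 and 20 of 332 NK barcodes and 10 of 94 and 15 of 210 cDC2 barcodes out of their classes.

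Lymphocytes held a larger share, and myeloid cells a smaller one, of the IL15 superagonist library. CD8 T barcodes were 16.2% (95% interval 15.3% to 17.0%) of the anti-PD1 and 31.0% (29.8% to 32.1%) of the IL15 superagonist library, 1.92-fold more (1.78 to 2.06). NK barcodes were 4.79% and 13.4%, 2.79-fold more (2.46 to 3.18). CD4 T barcodes were 1.59% and 1.51%, a ratio of 0.952 whose interval of 0.717 to 1.26 includes no difference. Treg barcodes went the other way, 1.91% against 0.740%, which was 2.57-fold fewer (1.84 to 3.66) in the IL15 superagonist library. There were thus 8.48 CD8 T barcodes per Treg (7.07 to 10.2) in the anti-PD1 and 41.8 (31.4 to 56.9) in the IL15 superagonist library, and 2.52 and 18.1 NK barcodes per Treg.

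Among T and NK barcodes alone, CD8 T held nearly the same share in both libraries, 47.7% and 46.6%, NK held 14.1% and 20.1%, Treg 5.62% and 1.11%, and CD4 T 4.68% and 2.27%. T-cell barcodes with neither Cd8 nor Cd4 nor Foxp3 UMIs, a class the rules leave unnamed, were 8.30% and 19.1% of all barcodes, 2.30-fold more (2.08 to 2.54). Their level of Klrb1c, which encodes the NK1.1 receptor, was 74.0 and 175 CPM, and that of Trdc, the constant gene of the T-cell receptor delta chain, 66.6 and 81.3 CPM. They also held the macrophage and monocyte gene Lyz2 at 3163 and 1717 CPM, so the class held myeloid RNA as well. Without barcodes holding transcripts of another lineage, its share was 6.28% and 17.8%.

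On the myeloid side, macrophages were 22.3% of the anti-PD1 and 11.3% of the IL15 superagonist library, 1.97-fold fewer (1.80 to 2.15). Monocytes were 17.0% and 8.85%, 1.92-fold fewer (1.74 to 2.13), and 2.32-fold fewer without the barcodes of another lineage. cDC2 were 3.03% and 1.45%, 2.09-fold fewer (1.63 to 2.70). cDC1, the dendritic cells that cross-present antigen to CD8 T cells, were 1.36% and 0.971%, a ratio of 0.716 whose interval of 0.512 to 0.995 ends just under 1, and after thinning to 2000 UMIs a barcode the ratio was 0.879 (0.533 to 1.44). These are shares of sorted cells and sum to a fixed total, so a larger lymphocyte share and a smaller myeloid share cannot be told apart. Barcodes that met none of the rules were 22.4% and 10.9%. With every barcode thinned to 2000 UMIs the order of the libraries was the same for each of these classes, for example 14.9% and 28.6% for CD8 T and 3.45% and 9.79% for NK.

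**Figure D1:**
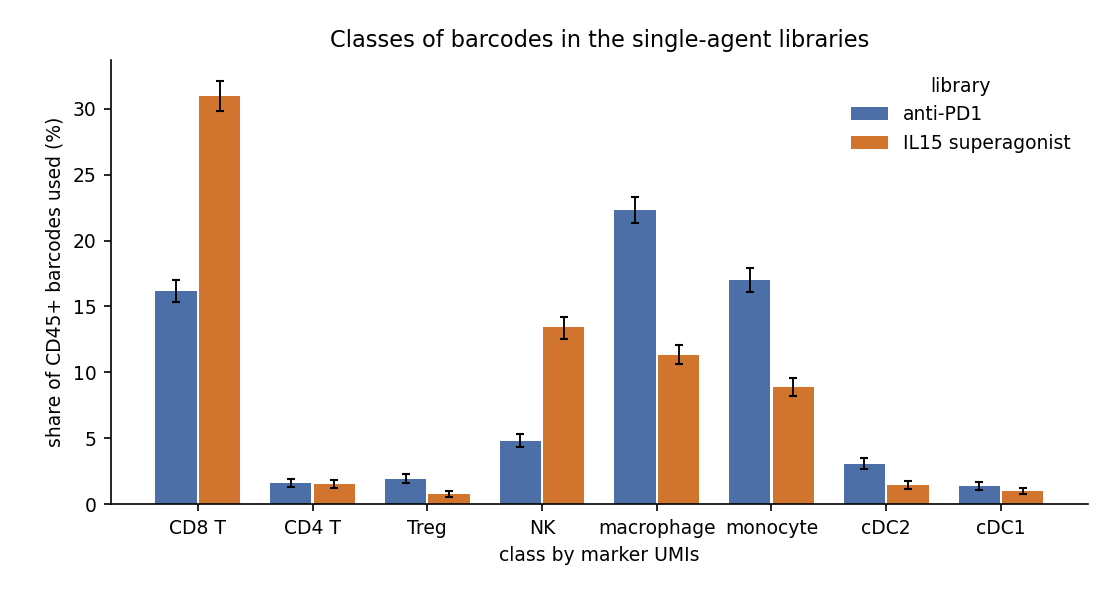
Share of the barcodes used (%, y axis) in each class (x axis) in the anti-PD1 (blue) and IL15 superagonist (orange) libraries; bars are 1 library each and error bars are exact 95% binomial intervals. CD8 T and NK stood higher in the IL15 superagonist library (31.0% and 13.4% against 16.2% and 4.79%), while macrophages, monocytes, cDC2 and Treg stood lower.

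In CD8 T barcodes of the IL15 superagonist library, genes of circulating, stem-like and memory T cells stood higher and cell-division genes lower. Of 9799 genes compared, 304 (3.10%) were 2-fold or more higher and 245 (2.50%) were 2-fold or more lower, and the median over all genes was near 0. After thinning to 2000 UMIs the balance turned, with 193 (2.60%) higher and 215 (2.89%) lower. Of 19 stem-like and memory genes compared, 10 were past 2-fold higher and none lower, with a median log2 ratio of 1.10. Lef1, a transcription factor of naive and memory T cells, was at 28.4 CPM in the anti-PD1 and 99.2 CPM in the IL15 superagonist library, 3.50-fold higher (3.04 to 4.04). S1pr1, the receptor by which T cells leave tissue towards blood and lymph, was at 27.0 and 96.2 CPM, 3.56-fold higher (3.08 to 4.12). Both were found in more barcodes: Lef1 UMIs were found in 15.5% and 35.4% of CD8 T barcodes, and S1pr1 UMIs in 13% and 31.7%, at median depths of 5938 and 4436 UMIs. At 2000 UMIs a barcode these shares were 6.69% and 19.3% for Lef1 and 7.66% and 19.5% for S1pr1, against 0.0701% and 0.286% and 0.350% and 1.29% in macrophages.

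Other members followed. Satb1, a chromatin organizer of T cells, was at 92.5 and 257 CPM (2.78-fold), Ccr7, a lymph-node homing receptor, at 169.9 and 417 CPM (2.46-fold), and Il7r, the IL-7 receptor chain of memory T cells, at 70.9 and 152 CPM (2.14-fold). Tcf7, which encodes the stem-like T-cell factor TCF-1, was 1.74-fold higher (51.6 and 89.6 CPM) and did not reach 2-fold. By the naming rule, which passes over genes that could come from free RNA of other cells, the highest genes were Nrarp, a feedback inhibitor of Notch signalling (11.3 and 47.9 CPM, 4.24-fold, 3.41 to 5.34), Card6 (4.13-fold), Serpinb1a, a protease inhibitor (4.06-fold), Pde2a, a cyclic nucleotide phosphodiesterase (3.71-fold), S1pr1, Fam101b (3.62-fold), Lmna, which encodes lamin A and C of the nuclear lamina (3.56-fold), Lef1, Frat2 (3.49-fold) and Sidt1 (3.39-fold). The homing and residency list had 6 of 21 members past 2-fold higher and none lower, with a median of 0.36.

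Division genes ran the other way. Of 22 DNA replication genes 7 were past 2-fold lower and none higher (median log2 ratio -0.86), and of 24 mitosis genes 6 were lower and none higher (median -0.83), with all 24 below 0. Mki67, the marker of cycling cells, was at 159 and 69.9 CPM, 2.28-fold lower (2.09 to 2.49), and at 2000 UMIs it was found in 14.7% and 5.52% of CD8 T barcodes, against 0.629% and 1.39% of monocytes. Dut, which keeps uracil out of DNA, was at 521 and 231 CPM (2.25-fold lower) and Clspn, a replication checkpoint gene, at 43.1 and 16.8 CPM (2.57-fold lower). At that depth 53.9% and 34.1% of CD8 T barcodes held at least 1 UMI of the mitosis list, against 12.3% and 13.7% of monocytes.

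Mitosis UMIs were found in fewer CD8 T barcodes of the library with the higher memory genes, so the comparison was repeated on CD8 T barcodes with no UMI of the 24 mitosis genes, 313 (28%) in the anti-PD1 and 902 (44.9%) in the IL15 superagonist library, at close median depths of 3791 and 3882 UMIs. There the median of the stem-like and memory list was 0.36 in place of 1.10, with 2 of 18 members past 2-fold. S1pr1 was still 2.06-fold higher (1.66 to 2.59) and Lef1 2.0-fold (1.61 to 2.51), while Il7r was 1.05-fold higher (0.911 to 1.21) and Tcf7 was at 159 and 141 CPM, a ratio of 0.883 (0.751 to 1.04). Nrarp (4.66-fold higher), Lmna (2.92-fold) and Sidt1 (2.43-fold) stayed past 2-fold. Higher levels of Tcf7 and Il7r were thus a property of the whole class and not of its barcodes without mitosis UMIs, whereas those of Nrarp, S1pr1 and Lmna were found in both.

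**Figure D2:**
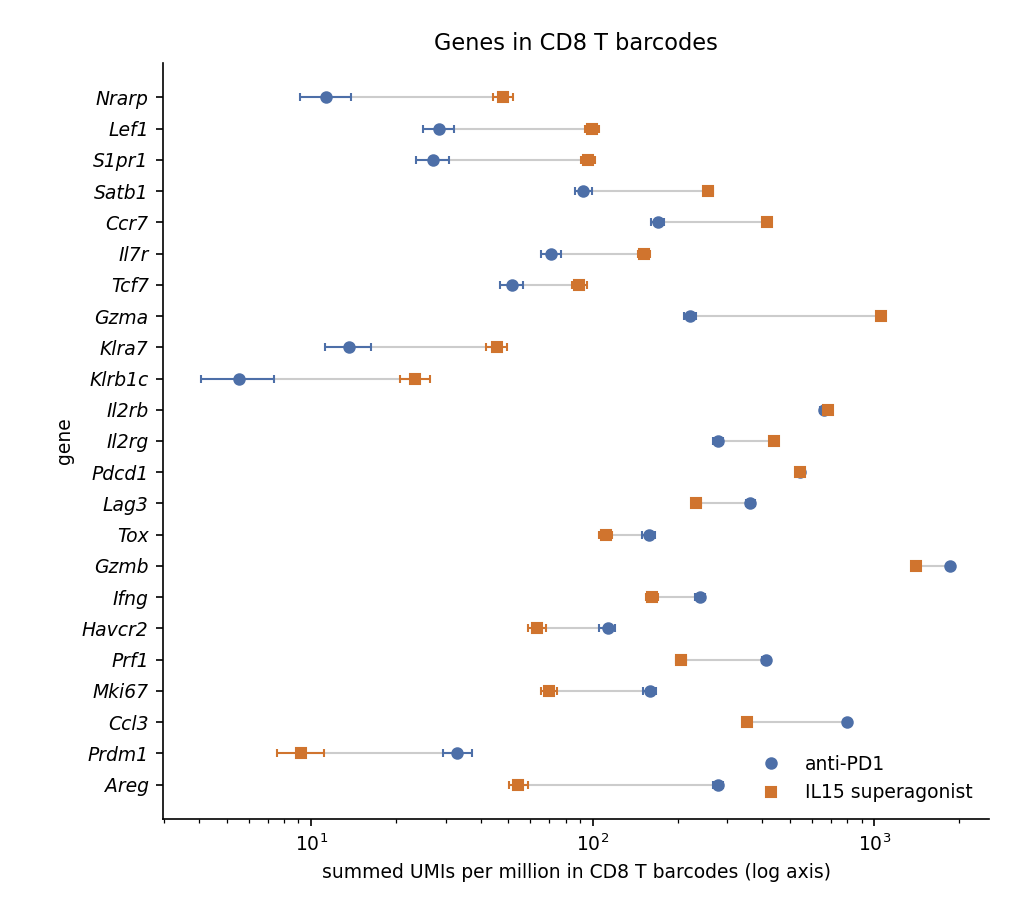
Level of 23 genes (y axis) in CD8 T barcodes in CPM (log x axis) in the anti-PD1 (blue circles) and IL15 superagonist (orange squares) libraries; horizontal bars are exact 95% Poisson intervals for counting error, and some are narrower than the symbols. Lef1, S1pr1 and Gzma lie to the right in the IL15 superagonist library (99.2, 96.2 and 1058 CPM), Areg, Prdm1 and Mki67 to the left, and Pdcd1 and Il2rb nearly coincide.

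Cytotoxic genes of CD8 T barcodes split by gene. Gzma, which encodes the protease granzyme A, was at 221 and 1058 CPM, 4.78-fold higher in the IL15 superagonist library (4.56 to 5.03), and Gzmm was at 3.48 and 17.4 CPM (5.00-fold); the other 7 of 9 granzyme genes compared were within 2-fold. Gzmb was at 1854 and 1407 CPM, 1.32-fold lower, and Gzmk at 163 and 231 CPM, 1.42-fold higher. Prf1, the pore-forming perforin that carries granzymes into targets, lay at the 2-fold limit on the other side (412 and 206 CPM, 2.0-fold lower, 1.90 to 2.11). Gzma UMIs were found in 11.6% and 30.5% of CD8 T barcodes at 2000 UMIs, against 1.54% and 4.58% of macrophages in the same libraries, and without mitosis UMIs Gzma was still 4.02-fold higher (3.64 to 4.44).

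Genes of NK-cell receptors stood higher in CD8 T as well. Of 22 such genes compared, 10 were past 2-fold higher and none lower (median 0.78). Klrb1c was at 5.53 and 23.4 CPM (4.24-fold, 3.09 to 5.92), Klra7, an inhibitory Ly49 receptor of MHC class I, at 13.6 and 45.6 CPM (3.36-fold) and Crtam, an adhesion receptor of activated NK and CD8 T cells, at 23.8 and 67.8 CPM (2.85-fold). Without mitosis UMIs Klrb1c was still 3.60-fold higher (2.04 to 6.92), but Klra7 was 1.58-fold (1.15 to 2.22) and Crtam 1.07-fold (0.795 to 1.47). At 2000 UMIs, Klrb1c or a Ly49 gene was found in 20.4% (17.2% to 24%) of the CD8 T barcodes with Gzma and in 4.60% (3.52% to 5.89%) of those without it in the IL15 superagonist library. The same shares in the anti-PD1 library were 10.8% (13 of 120 barcodes) and 3.07%, and in macrophages 0.701% (anti-PD1) and 1.43% (IL15 superagonist) of barcodes held such a UMI. Barcodes with a UMI of Lef1 or S1pr1 also held Gzma more often than the rest, 37.8% against 27% in the IL15 superagonist and 21.1% against 10.3% in the anti-PD1 library. They held Havcr2, which encodes the inhibitory receptor TIM-3, less often, 2.70% against 10.5% and 6.25% against 20%.

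The receptors PD-1, LAG-3 and TIM-3, which mark exhausted T cells, were level or lower in summed UMIs, none of them by 2-fold. Pdcd1, the target of the antibody, was at 542 CPM in the anti-PD1 and 543 CPM in the IL15 superagonist library, a ratio of 1.00 (0.964 to 1.04). It was found in fewer barcodes of the IL15 superagonist library, 59.3% (56.2% to 62.3%) and 44.1% (41.8% to 46.4%) at 2000 UMIs, against 0.210% and 0.286% of macrophages. Lag3 was at 362 and 233 CPM (1.55-fold lower), Havcr2 at 113 and 63.3 CPM (1.78-fold lower) and Tox, a transcription factor of exhausted T cells, at 158 and 111 CPM (1.42-fold lower). Of 27 genes on the list of inhibitory receptors and exhaustion 3 were past 2-fold lower and none higher (median -0.26, with 9 members above 0, up to 0.69), the farthest being Tox2, a relative of Tox, at 7.81 and 0.505 CPM (15.5-fold lower, 6.73 to 43.6). Without mitosis UMIs, Havcr2 was 2.68-fold (2.07 to 3.46) and Lag3 2.20-fold (1.94 to 2.49) lower. Their lower levels were thus at least as large among barcodes without mitosis UMIs.

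By the same rule, the lowest genes in CD8 T of the IL15 superagonist library were led by Areg, which encodes the growth factor amphiregulin, at 278 and 54.4 CPM (5.12-fold lower, 4.69 to 5.59). Its UMIs were concentrated, with 21 and 15 barcodes holding 50% of them. Without mitosis UMIs Areg was 2.66-fold lower (1.93 to 3.67). Sv2c followed at 63.4 and 16.4 CPM (3.86-fold), Ankrd37, a hypoxia-induced gene, at 41.5 and 10.8 CPM (3.84-fold), Prdm1, which encodes the effector-differentiation factor BLIMP-1, at 33.0 and 9.18 CPM (3.60-fold) and Zbtb32, a transcriptional repressor, at 55.8 and 17.0 CPM (3.28-fold). Hspa1a, a heat-shock gene, was 2.85-fold lower, but 5 barcodes in each library held 50% of its UMIs. The chemokine Ccl3 was at 796 and 352 CPM (2.26-fold lower), with 26 and 12 barcodes holding 50% of its UMIs. Glycolytic genes had a median of -0.43, with Gapdh at 1088 and 542 CPM (2.01-fold lower) and Slc16a3, the lactate exporter, at 79.1 and 34.5 CPM (2.29-fold lower) the 2 of 20 past 2-fold, whereas oxidative phosphorylation and housekeeping genes had no member past 2-fold. Ifng, the cytokine interferon-gamma, was at 240.1 and 162 CPM, 1.48-fold lower. Csf2, which encodes GM-CSF, was at 2.04 and 14.1 CPM (6.89-fold higher) and the chemokine Ccl1 at 93.8 and 247 CPM (2.63-fold higher), with 7 and 14 barcodes holding 50% of their UMIs in the IL15 superagonist library. Without mitosis UMIs Csf2 was 1.68-fold (0.563 to 6.77) and Ccl1 1.27-fold (1.05 to 1.54) higher.

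The receptor and feedback genes of the IL-15 pathway given here were level or higher in CD8 T barcodes of the IL15 superagonist library, most by less than 2-fold. Il2rb was at 661 and 683 CPM (1.03-fold) and Il2rg at 279 and 439 CPM (1.57-fold higher, 1.5 to 1.65). Il2ra, the high-affinity IL-2 receptor chain, was at 58.0 and 81.5 CPM (1.40-fold). Cish and Socs1, inhibitors induced by STAT5 signalling, were at 78.0 and 109.7 CPM (1.41-fold) and at 115 and 206 CPM (1.79-fold). Without mitosis UMIs Cish was 1.21-fold (0.983 to 1.49) and Socs1 1.56-fold (1.34 to 1.81) higher. There Bcl2, a survival gene, was at 199 and 122 CPM (1.63-fold lower, 1.39 to 1.90). Socs3, of the same family as Socs1, was at 56.4 and 113 CPM without barcodes of another lineage. Across the IL-2 and IL-15 list, 1 of 24 genes was past 2-fold higher and 1 lower (median 0.19), and across T-cell receptor signalling 1 of 27 was higher and none lower (median 0.18).

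NK barcodes of the IL15 superagonist library held more Klrg1 and Gzmk and less Tcf7, Myc and Ccnd2. Of 7098 genes compared, 206 (2.90%) were past 2-fold higher and 269 (3.79%) past 2-fold lower, but after thinning to 2000 UMIs 138 (3.39%) were higher and 69 (1.70%) lower. Klrg1, a receptor of terminally mature NK cells, was at 83.9 and 307 CPM (3.65-fold higher, 3.05 to 4.41). Gzmk was at 10.2 and 176 CPM (17.3-fold higher, 10.6 to 30.5). At 2000 UMIs, Klrg1 UMIs were found in 13.8% and 38.1% of NK barcodes and Gzmk UMIs in 2.09% and 21.2%, against 0.210% and 0.143%, and 0 and 0.572%, of macrophages. NK depths were closer than those of CD8 T, with medians of 3394 and 3728 UMIs.

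Tcf7, which in NK cells marks the less mature stages, was at 82.6 and 32.5 CPM (2.55-fold lower, 1.97 to 3.30) and was found in 18.4% and 4.42% of thinned NK barcodes. In the anti-PD1 library 1 of 33 thinned NK barcodes with Klrg1 held Tcf7, against 43 of 206 without it. In the IL15 superagonist library the same counts were 6 of 241 and 22 of 392, so Tcf7 was rarer there also among barcodes without Klrg1 (5.61%, 3.55% to 8.37%, against 20.9%, 15.5% to 27.1%). The CD8 T ratio of 1.74 lay on the other side of 1 but under 2-fold, and was 0.883 without mitosis UMIs, and the difference between classes was not tested.

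Further genes past 2-fold higher in NK were Tgfa, which encodes transforming growth factor alpha (3.81 and 47.2 CPM, 12.4-fold, 5.56 to 34.2), the Ly49 receptor gene Klra5 (11.4 and 79.9 CPM, 6.98-fold), Gpx8 (6.61-fold), Khdc1a (4.24-fold) and Itga1, an integrin chain of tissue-resident lymphocytes (10.8 and 41.6 CPM, 3.85-fold). The chemokine Ccl5 was at 9571 and 22142 CPM (2.31-fold), Klra7 at 270.2 and 708 CPM (2.62-fold) and Klrc1, which encodes the inhibitory receptor NKG2A, at 158 and 344 CPM (2.18-fold). Of 22 NK-cell receptor genes 6 were higher and 1 lower (median 0.40). Gzma, already the most abundant granzyme, was at 7817 and 15046 CPM (1.92-fold) and Prf1 at 583 and 1026 CPM (1.76-fold, 1.64 to 1.89). Gzmb (2314 and 2432 CPM), Gzmc (1969 and 2357 CPM) and Ifng (75.0 and 89.6 CPM) were near level.

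Of 8 granzyme genes compared in NK, 5 were past 2-fold higher, with a median of 3.75, but 4 of them rested on very few barcodes. Gzmd was at 29.2 and 640.3 CPM, Gzme at 24.2 and 265 CPM and Gzmf at 6.99 and 466 CPM, and in the IL15 superagonist library 2 barcodes held 50% of the UMIs of each. Gzmg had no UMI in the anti-PD1 library and 358 CPM in the other, an at least 188-fold higher level against a floor of 3 counts, and 1 barcode held 50% of its UMIs. These 4 ratios describe a few barcodes and not the class, unlike Gzmk, for which 57 of 256 barcodes with a UMI were needed to reach 50%.

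**Figure D3:**
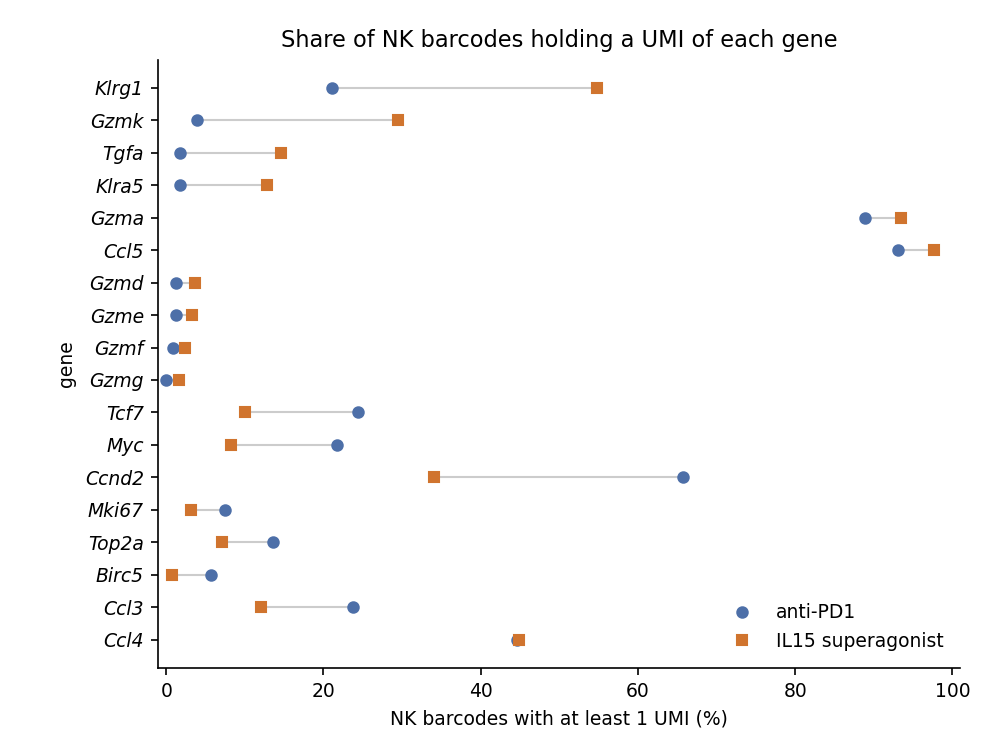
Share of NK barcodes with at least 1 UMI (%, x axis) of 18 genes (y axis) in the anti-PD1 (blue circles, 332 barcodes) and IL15 superagonist (orange squares, 867 barcodes) libraries, at median depths of 3394 and 3728 UMIs. Klrg1 and Gzmk UMIs were found in many more barcodes of the IL15 superagonist library (54.8% and 29.5%), whereas Gzmd to Gzmg UMIs were found in at most 3.69%.

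Several regulators of growth, and those mitosis genes that had enough UMIs to be compared, stood past 2-fold lower in NK barcodes. Myc, a driver of cell growth, was at 87.7 and 31.3 CPM (2.80-fold lower, 2.17 to 3.62), Ccnd2, a G1 cyclin, at 329 and 133 CPM (2.48-fold) and Pim2, a survival kinase, at 130.3 and 56.0 CPM (2.33-fold). Bcl2, which protects from apoptosis and is a known target of IL-15 signalling, was at 284 and 147 CPM (1.93-fold lower, and 2.09-fold without barcodes of another lineage). Cxcr4, a bone-marrow retention receptor, was 2.22-fold lower. Of 23 genes of the IL-2 and IL-15 list 3 were past 2-fold lower and none higher, with a median of -0.03, and Il2rb was at 1053 and 1349.9 CPM (1.28-fold higher) and Il2rg at 413 and 650.3 CPM (1.57-fold). The chemokine genes Ccl3 (325 and 73.8 CPM, 4.41-fold) and Ccl4 (1554 and 628 CPM, 2.47-fold) were lower, although Ccl4 UMIs were found in a like share of NK barcodes in both libraries, 44.6% and 44.9%.

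Of 24 mitosis genes only 10 had enough UMIs to be compared in NK, and all 10 were past 2-fold lower (median -2.81). Of 22 DNA replication genes 13 were compared, and 9 were past 2-fold lower (median -1.3). Several division genes reached the minimum of 50 UMIs mostly through the anti-PD1 library, such as Cdca8 (57 and 9 UMIs) and Ccna2 (48 and 10 UMIs). These counts and medians therefore cannot show that the lists as a whole were lower. Birc5, which encodes the mitotic protein survivin, was at 74.4 and 5.55 CPM (13.4-fold lower), Cks1b, a subunit of cyclin-dependent kinases, at 83.9 and 11.7 CPM (7.20-fold), Mki67 at 62.3 and 12.5 CPM (4.99-fold) and Top2a, a DNA topoisomerase of dividing cells, at 106 and 23.0 CPM (4.61-fold); Cdca8, Asf1b, Cdca3, Ccna2, Ube2c, Tpx2 and Spc24 were among the lowest genes as well. These too rested on few barcodes: 19 of 332 and 6 of 867 held Birc5. At 2000 UMIs, 24.3% (19% to 30.2%) and 20.4% (17.3% to 23.7%) of NK barcodes held any UMI of the mitosis list, against 12.3% and 13.7% of monocytes. Mki67 was found in 3.77% and 2.21% of NK barcodes, against 0.629% and 1.39% of monocytes, and Birc5 in 2.09% and 0.632%, against 0.629% and 0.696%. Hmox1, at 247 and 12.8 CPM, ranked first among the lower genes, with 50% of its anti-PD1 UMIs in 1 barcode. MHC class II genes, which mark myeloid cells and B cells, had 9 of 10 members lower and a median of -1.39, and the inflammatory myeloid and the complement and phagocytosis lists had 10 of 16 and 8 of 12 lower. Without barcodes of another lineage, when 233 (3.46%) of 6732 genes were past 2-fold higher and 169 (2.51%) lower, that median was 0.03 with no member past 2-fold, 5 of 8 inflammatory and none of 7 complement genes were lower, and the MHC class II gene H2-Aa was at 119 and 139 CPM in place of 509 and 199 CPM.

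Macrophages of the IL15 superagonist library had lower levels of interferon-response genes and of Nos2, and higher levels of genes of alternatively activated macrophages. Of 9478 genes compared, 197 (2.08%) were past 2-fold higher and 122 (1.29%) past 2-fold lower. After thinning to 2000 UMIs the balance turned, with 85 (1.32%) higher and 109 (1.69%) lower. The highest-ranked gene was Atp6v0d2, a subunit of the vacuolar proton pump, at 10.8 and 76.5 CPM (7.12-fold, 5.88 to 8.67), found at 2000 UMIs in 1.33% and 8.58% of macrophage barcodes against 0.291% and 0.162% of CD8 T. Timp2, an inhibitor of matrix metalloproteases, was at 56.5 and 262 CPM (4.64-fold) and was found in 9.39% and 30.8% of thinned macrophages, against 0.969% and 1.19% of CD8 T. Ccl24, an eosinophil-attracting chemokine of alternatively activated macrophages, was at 55.5 and 267 CPM (4.81-fold), with 7 barcodes holding 50% of its UMIs in each library.

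Npl (4.44-fold), Gng11 (4.40-fold) and Ear2 (3.93-fold) were also among the highest. Gpnmb, a glycoprotein of lipid-laden macrophages, was at 109.6 and 362 CPM (3.30-fold, 3.09 to 3.53) and in 9.88% and 24.2% of thinned barcodes, against 0.291% and 1.19% of CD8 T. Mmp12, the macrophage elastase, was at 129 and 346 CPM (2.68-fold), Ctsd, a lysosomal protease, at 1161 and 2394 CPM (2.06-fold), Folr2, a folate receptor of resident macrophages, at 28 and 66.4 CPM (2.37-fold) and the mannose receptor gene Mrc1 at 160.1 and 329.7 CPM (2.06-fold). Of 25 genes on the list of alternatively activated and suppressive myeloid cells 7 were higher and none lower (median 0.55). Arg1, the arginase of that list, was level in summed UMIs at 981 and 919 CPM and was found in more barcodes of the IL15 superagonist library, 31.5% (29.1% to 33.9%) and 38.1% (34.4% to 41.8%) at 2000 UMIs, against 0.872% and 0.541% of CD8 T. Among all monocyte barcodes, which included lymphocytes with Ly6c2, Arg1 was found in 14.2% and 10.6%. At 2000 UMIs it was found in 9.31% (7.38% to 11.5%) and 2.78% (1.45% to 4.81%) of them. At that depth 3.14% and 26.2% of monocyte barcodes held Gzma. The Arg1 shares are thus not of monocytes alone, and a direction in monocytes cannot be read from them.

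Cell-division genes stood higher in macrophages, opposite to CD8 T: 6 of 22 DNA replication genes and 5 of 24 mitosis genes were past 2-fold higher and none lower, with medians of 0.79 and 0.80. In NK these lists could not be judged as a whole. Rrm2, a ribonucleotide reductase subunit, was at 6.37 and 19 CPM (2.98-fold), the helicase gene Mcm2 at 10.4 and 23.1 CPM (2.23-fold) and the thymidine kinase gene Tk1 at 10.8 and 24 CPM (2.23-fold), while Mki67 was at 21.8 and 38.3 CPM (1.75-fold higher, 1.47 to 2.09). All of these levels were well below those in CD8 T barcodes. At 2000 UMIs, 19.3% (17.3% to 21.4%) and 24.9% (21.7% to 28.3%) of macrophages held a UMI of the mitosis list.

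Among genes that were lower in macrophages, Nos2, the inducible nitric oxide synthase of inflammatory macrophages, was at 136 and 39.6 CPM (3.42-fold lower, 3.0 to 3.92) and was found in 11.7% and 4.58% of thinned barcodes, against 0 and 0.0541% of CD8 T. Gbp2b, a guanylate-binding protein induced by interferon, was at 34.5 and 5.47 CPM (6.31-fold lower). Ifitm1, an interferon-induced membrane protein, was at 418 and 86.1 CPM (4.85-fold), Isg20, an interferon-induced nuclease, at 51.9 and 11.8 CPM (4.38-fold), Phf11a at 33.0 and 7.29 CPM (4.52-fold) and Ly6a, an interferon-induced surface protein, at 1636 and 498 CPM (3.29-fold). Saa3, an acute-phase gene, was at 20.3 and 3.95 CPM (5.14-fold), with 4 and 5 barcodes holding 50% of its UMIs. The PD-1 ligand gene Cd274 was at 249 and 111 CPM (2.24-fold lower, 2.07 to 2.44) and the activating Fc receptor gene Fcgr4 at 505 and 225 CPM (2.25-fold). The T-cell attracting chemokines Cxcl9 (971 and 775 CPM) and Cxcl10 (930.2 and 545 CPM) were 1.25-fold and 1.71-fold lower, and Il15ra, which presents IL-15, was 1.87-fold lower at 13.6 and 7.29 CPM.

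Type I interferon genes with enough UMIs to be compared had medians below 0 in each of the 4 myeloid classes and in CD4 T. In CD8 T and NK their medians were near 0, and the difference between classes was not tested. Type I interferons act through a complex with STAT2 and IRF9, which binds the interferon-stimulated response element in the promoters of their target genes. The promoter stretches of 4 genes of the list are shown because they hold the repeated letters of that element, GAAA and GAAA with any 2 bases between them (TTTC and TTTC on the other strand). The match nearest the gene start ends 56 bases before it in Isg15, 75 in Ifit1, 110 in Rsad2 and 212 in Stat2. They come from RefSeq (build GRCm38.p6), read along the strand of the gene, and capitals mark the matches. The Isg15 stretch is chr4:156200871-156200900 (minus strand), that of Ifit1 is chr19:34640785-34640814 (plus), that of Rsad2 is chr12:26456553-26456582 (minus) and that of Stat2 is chr10:128270266-128270295 (plus).
Isg15: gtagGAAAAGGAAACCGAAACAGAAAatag
Ifit1: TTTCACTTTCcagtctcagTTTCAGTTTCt
Rsad2: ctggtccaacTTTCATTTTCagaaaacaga
Stat2: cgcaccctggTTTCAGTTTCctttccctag
Of the 34 members of the type I interferon list 26 had a promoter window (250 bases before to 50 after the start), and 16 of these (61.5%) held the letters on either strand, against 1079 of 27025 genes (3.99%) overall and 1 of 16 (6.25%) matched stem-like and memory genes. Of the interferon-gamma list, which shares no gene with it, 11 of 25 matched members (44%) did. A match of letters describes the window and shows no binding.

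All 34 type I interferon genes could be compared in macrophages: 8 were past 2-fold lower and none higher, with a median log2 ratio of -0.72. In cDC2, 24 of 32 were lower and none higher (median -1.25), and there 61 (1.23%) of 4959 genes were past 2-fold higher and 134 (2.70%) lower. In cDC1, 11 of 18 were lower and none higher (median -1.12), beside 40 (0.904%) of 4427 genes higher and 126 (2.85%) lower. In monocytes without barcodes of another lineage, 10 of 34 were lower and none higher (median -0.75), beside 74 (0.933%) of 7935 genes higher and 169 (2.13%) lower; with all monocyte barcodes it was 12 of 34, beside 241 (2.86%) of 8434 genes higher and 145 (1.72%) lower. In CD4 T, 8 of 14 were lower and none higher (median -1.23), beside 64 (2.81%) of 2278 genes higher and 52 (2.28%) lower. In CD8 T none of 31 passed 2-fold (median -0.09), and in NK 1 of 23 was higher and 2 lower (median 0.04).

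By gene, Isg15, an interferon-induced ubiquitin-like protein, was at 1051 and 418 CPM in macrophages (2.51-fold lower, 2.41 to 2.62). Its level in monocytes was 1627 and 686 CPM (2.37-fold lower), in cDC2 866 and 419 CPM (2.07-fold) and in cDC1 332 and 40.1 CPM (8.28-fold, 5.91 to 11.9). Irf7, the transcription factor that amplifies the interferon response, was at 333 and 120.3 CPM in macrophages (2.77-fold lower), 505 and 291 CPM in monocytes (1.74-fold), 313 and 139.8 CPM in cDC2 (2.24-fold) and 228 and 44.5 CPM in cDC1 (5.12-fold). In NK barcodes Irf7 stood the other way, at 75.6 and 164 CPM (2.17-fold higher, 1.78 to 2.66). Ifit1, an antiviral RNA-binding protein, was at 102 and 9.4 CPM in cDC2 (10.8-fold lower, 5.39 to 25.5), Ifit2 at 87.2 and 9.4 CPM (9.28-fold) and the antiviral enzyme gene Rsad2 at 144 and 24.7 CPM (5.84-fold). In CD4 T, Ifi27l2a was at 3132 and 1057 CPM (2.96-fold lower), Zbp1, a nucleic acid sensor, at 255 and 56.5 CPM (4.52-fold) and Isg20 at 181 and 45.7 CPM.

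**Figure D4:**
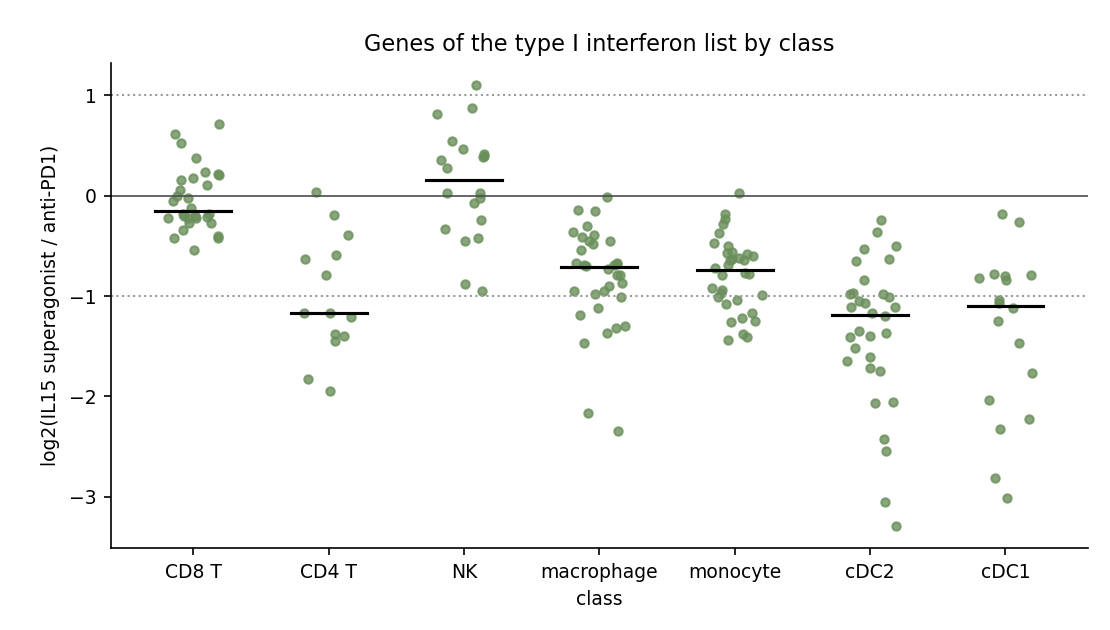
log2 ratio of the IL15 superagonist to the anti-PD1 library (y axis) for each gene of the type I interferon list with at least 50 UMIs (points, spread sideways for sight only) by class (x axis), with barcodes of another lineage left out; black lines are medians and dotted lines mark 2-fold. The medians of the 4 myeloid classes and of CD4 T lie between -0.72 and -1.18, and those of CD8 T and NK at -0.15 and 0.15.

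On the interferon-gamma list medians were below 0 in the myeloid classes as well; the difference between the lists was not tested. In macrophages 5 of 32 were past 2-fold lower (median -0.64), in monocytes 2 of 32 (median -0.46), in cDC2 7 of 32 (median -0.51) and in cDC1 5 of 27 (median -0.21), with none higher in these classes. MHC class II genes, part of the interferon-gamma response in many cells, had medians of -0.25 in macrophages, -0.04 in cDC2 and 0.01 in cDC1. Without barcodes of another lineage the type I interferon median was -0.72 in macrophages and -1.18 in cDC2, close to the values by the rule alone.

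In monocytes, Nos2, Ly6a, Ifitm1 and Cd274 were past 2-fold lower as they were in macrophages, but division genes were not higher: without barcodes of another lineage the DNA replication median was -0.23 over 9 genes. On the list of alternatively activated and suppressive cells 6 of 24 genes were then higher and none lower (median 0.19). Nos2 was at 95.4 and 19 CPM (5.01-fold lower, 3.82 to 6.69), Ly6a at 1698 and 525 CPM (3.24-fold), Ifitm1 at 652 and 188 CPM (3.47-fold), Il18bp, the secreted inhibitor of IL-18, at 117 and 30.4 CPM (3.84-fold), Rgs1, a regulator of G-protein signalling, at 393 and 116 CPM (3.37-fold), Cd274 at 296 and 141 CPM (2.11-fold) and the interferon-induced Oasl1 at 85.6 and 31.4 CPM (2.73-fold). Dnase1l3, a secreted nuclease, was at 26.9 and 5.01 CPM (5.37-fold). Higher were Lmna at 67.5 and 268 CPM (3.97-fold, 3.54 to 4.46), Fn1, which encodes fibronectin, at 339 and 768 CPM (2.26-fold), the potassium channel gene Kcna3 (3.22-fold) and Fosl1, an AP-1 transcription factor (3.03-fold). Ccl24 (88.6 and 453 CPM), Csf3 and Cd79a were past 2-fold higher too, but 3, 3 and 1 barcodes held 50% of their UMIs in the IL15 superagonist library. With all monocyte barcodes, by contrast, the highest genes were granzymes (8 of 8 compared, median 5.94) and NK-cell receptors (11 of 14, median 2.63), whereas NK-cell receptors had a median of -1.23 over 4 genes without barcodes of another lineage, when fewer than 4 granzyme genes could be compared.

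The dendritic classes were small, with 210 and 94 cDC2 and 94 and 63 cDC1 barcodes, and many of their ratios rest on a few barcodes. In cDC2 the chemokine gene Ccl17, made by maturing dendritic cells, was at 102 and 276 CPM (2.69-fold, 2.21 to 3.29), Ccl22, which binds the same receptor, at 42.8 and 114 CPM (2.66-fold) and Ccr7 at 141 and 324 CPM (2.29-fold), 3 of 17 genes of the recruitment and maturation list past 2-fold with none lower (median 0.15). Lmna (31.5 and 136 CPM, 4.32-fold), Pxdc1 (4.90-fold), Plet1 (3.73-fold) and Mmp19 (3.31-fold) were the highest-ranked genes beside Procr, whose ratio of 5.22 turned below 1 after thinning. Lower were Ccl3 (177 and 12.9 CPM, 13.7-fold), Ccl4 (1048 and 259.6 CPM, 4.04-fold, 3.51 to 4.66) and Cxcl10 (1724 and 692 CPM, 2.49-fold), while Cxcl9 was near level at 577 and 682 CPM. The inflammatory list had 7 of 15 genes lower and 1 higher (median -0.88). The neutrophil genes S100a8 and S100a9 were among the lowest, with 1 barcode holding 50% of their UMIs in each library, as was Klk1, which turned to higher without barcodes of another lineage.

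In cDC1, Ifitm1 was at 605 and 59.7 CPM (10.1-fold lower), Ifitm3 at 1605 and 268 CPM (5.99-fold, 5.25 to 6.87), the inflammatory cytokine gene Il1b at 1636 and 527 CPM (3.10-fold) and the prostaglandin synthase gene Ptgs2 at 118 and 11.9 CPM (9.85-fold). The inflammatory list had 9 of 17 genes lower and 2 higher (median -1.02). Ccr7 was at 91.6 and 20.6 CPM (4.44-fold lower), and Cxcl10 at 143 and 39.0 CPM (3.67-fold lower). The neutrophil-attracting chemokines Cxcl3 and Cxcl1 were lower as well, but came from 1 and 2 anti-PD1 barcodes. Higher were Dcstamp, a fusion receptor of dendritic cells and osteoclasts, at 8.11 and 49.9 CPM (6.15-fold, 3.06 to 13.7), Lmo1 at 21.9 and 74.8 CPM (3.42-fold), the fatty-acid receptor gene Cd36 at 47.0 and 105 CPM (2.24-fold) and Il12b, a chain of IL-12, at 20.3 and 88.9 CPM (4.39-fold), with 2 barcodes holding 50% of the Il12b UMIs in each library. Lpl, Apoe and Ccl12 were also higher, with 1 or 2 barcodes holding 50% of their UMIs in the IL15 superagonist library. MHC class II genes were level (median 0.01).

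CD4 T barcodes without Foxp3 numbered 110 and 98. By the rule alone their highest genes included Ccl8 and Apoe, macrophage genes, and Il5, each with 50% of its UMIs in 1 barcode of the IL15 superagonist library, and the lowest included the neutrophil gene S100a9, from 3 anti-PD1 barcodes and none of the other. Without barcodes of another lineage Il7r was at 374 and 781 CPM (2.09-fold higher, 1.70 to 2.58), the NK-receptor gene Klrd1 at 30.5 and 171 CPM (5.59-fold) and Sidt1 at 30.5 and 129 CPM (4.22-fold), while Isg15 was at 326 and 144 CPM (2.27-fold lower). Then 41 (1.96%) of 2093 genes were past 2-fold higher and 41 (1.96%) lower. Of 13 stem-like and memory genes 2 were higher by the rule alone and none lower (median 0.29). The 48 Treg barcodes of the IL15 superagonist library were under the minimum of 50, and no gene levels are given for them.

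**Figure D5:**
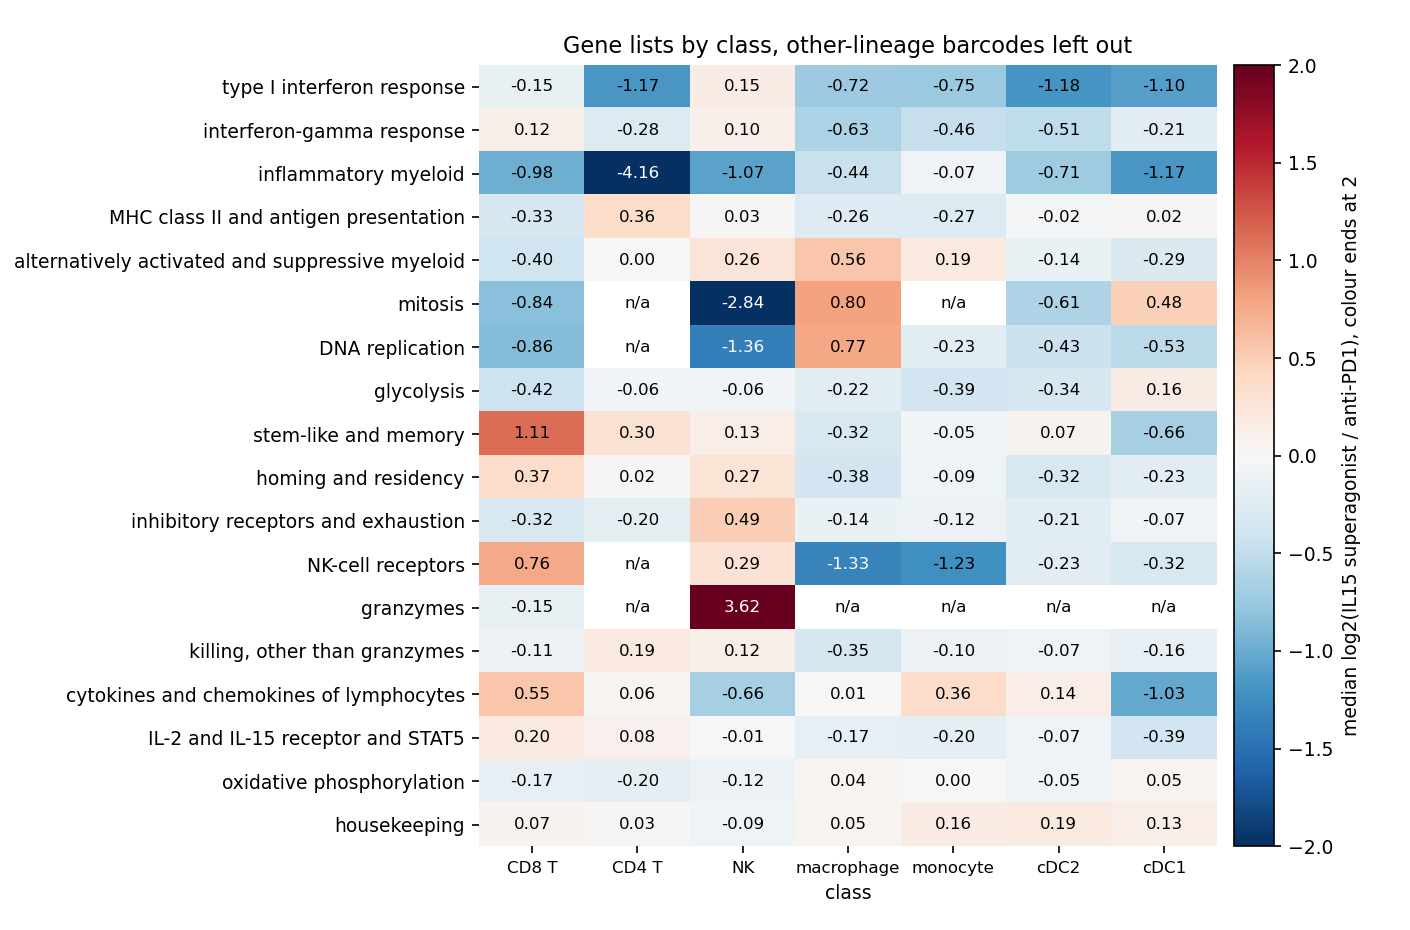
Median log2 ratio of the IL15 superagonist to the anti-PD1 library (colour and number) of 18 gene lists (rows) in 7 classes (columns), with barcodes of another lineage left out; n/a marks fewer than 4 genes with at least 50 UMIs, and the colour scale ends at 2. The type I interferon row is blue in the myeloid and CD4 T columns, the mitosis row is blue in CD8 T and NK and red in macrophages, and the stem-like and memory row is red in CD8 T (1.11). The mitosis value in NK rests on 8 of 24 genes, and the interferon values in cDC1 and CD4 T on 18 and 14 of 34.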

How the data were processed

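The authors deposited 5′ UMI count matrices, 1 per library and not normalized; the submitters' processing notes name Cell Ranger 2.1.1 and mm10. Counts were used as deposited. Barcodes over 10% mitochondrial UMIs were dropped (58 anti-PD1, 92 IL15 superagonist), as were those with at least 2 genes and 3 UMIs in 2 or more of 4 lineages; no doublet caller was run. UMIs were summed by class and library and scaled to CPM. Shares have Clopper-Pearson, levels Poisson and ratios exact conditional 95% intervals. Genes with at least 50 UMIs over both libraries were compared; log2 ratios add 0.5 to each count. CD8 T counts were also simulated with counting error only (9795 genes). There, 97 of 97 genes changed 3-fold and 5 of 9600 unchanged genes passed 2-fold. The simulation held no variation between barcodes, mice or libraries, so it gives no rate of false calls for the real libraries. Thinning drew 2000 UMIs a barcode; 20 IL15 superagonist barcodes were shallower and left out.

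Genes named are, per class, those with at least 20 CPM in the higher library whose interval bound lay farthest from 1 (10 each way in CD8 T and NK, 6 elsewhere), a fixed set of T-cell and myeloid genes, and up to 4 members per list; gating, mitochondrial, ribosomal, receptor-segment and sex-linked genes were left out, as were genes under 10% of their level in the highest class. Values of 2 listed genes are not reported here, although the counts and medians of their lists include them. Members and lists were chosen with earlier results of these data known. Alternatives varied marker minimums, class priority, doublet removal, depth, mitochondrial limit, weighting, centring and UMI minimum. Python 3.11.15, numpy 2.4.6, scipy 1.17.1 and pandas 2.3.3 were used.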

Additional observations from a re-analysis of the deposited data

Results flagged for a closer look

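The lists held 539 genes. Of the listed genes reported here, 9 stood past 2-fold in opposite directions in 2 classes of these 2 libraries, with barcodes of another lineage left out. The 2 classes were those with the highest and lowest ratio of the gene among 6 classes. In both, its level had to reach 20 CPM and 10% of its highest level among the 6. The share of all genes that would pass was not computed, and the difference between classes was not tested. Each value is a log2 ratio of the IL15 superagonist to the anti-PD1 library. The division genes Mcm2 (1.14 in macrophages, -1.53 in NK), Tk1 (1.21 and -2.54) and Cdk1 (1.39 and -2.04) stood higher in macrophages and lower in NK. In NK several division genes reached the UMI minimum mostly through the anti-PD1 library. The NK values therefore cannot show that division genes as a whole were lower. Cenpf, a centromere gene, was at 1.07 in cDC1 and -1.03 in CD8 T. Ccr7 was at 1.3 in CD8 T and -2.10 in cDC1. Socs3, a cytokine feedback inhibitor, was at 1.00 in CD8 T and -1.69 in cDC1. Crtam was at 1.51 in CD8 T and -1.3 in NK. Irf7 was at 1.10 in NK and -2.32 in cDC1. The chemokine Ccl12 was at 1.62 in cDC1, on 2 barcodes in the IL15 superagonist library, and -1.01 in monocytes.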

How the results depend on the processing

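The direction of each share other than CD4 T in the IL15 superagonist against the anti-PD1 library was the same under every alternative. For CD4 T, whose interval of 0.717 to 1.26 included no difference, direction was not judged. The macrophage ratio was 0.602 where exactly 1 class rule had to be met (0.508 by the rule alone). The monocyte ratio was 0.581 after thinning and 0.430 without barcodes of another lineage (0.520). Numbers of genes past 2-fold moved with the UMI minimum, and so did their share of the genes compared (7.62%, 5.60% and 3.54% in CD8 T at minimums of 20, 50 and 200 UMIs, and 10.4%, 6.69% and 4.69% in NK): with at least 20 and at least 200 UMIs they were 833 and 254 in CD8 T (549 with at least 50), 430 and 23 in CD4 T (116), 939 and 152 in NK (475), 551 and 128 in macrophages (319), 695 and 134 in monocytes (386), 490 and 48 in cDC2 (195) and 473 and 31 in cDC1 (166). Thinning gave 42 in CD4 T, 207 in NK, 194 in macrophages and 58 in cDC2. Whether more genes were past 2-fold higher or lower was not settled in 5 classes: the balance turned under 3 of 12 alternatives in CD8 T (280 higher and 451 lower by mean CPM over cells, 272 and 302 with no doublet removal), 5 of 12 in CD4 T (50 and 97 with no doublet removal), 8 of 12 in NK (192 and 141 with higher marker minimums), 3 of 12 in macrophages (59 and 69 with at least 200 UMIs, 92 and 107 without mitosis UMIs) and 1 of 12 in monocytes (74 and 169 without barcodes of another lineage). The following alternatives were chosen after seeing the data. Leaving out barcodes of another lineage gave 243 in monocytes. Leaving out the 2 barcodes with most UMIs of each gene gave 307 in cDC2. Leaving out barcodes with mitosis UMIs gave 289 in CD8 T, 56 in CD4 T and 199 in macrophages, and turned the DNA replication medians to 0.07 in CD8 T and 0.04 in NK. Of the single-gene ratios followed over all classes, 24 then fell under 2-fold, 4 rose past it and 132 did neither. Medians that turned without barcodes of another lineage were MHC class II in NK (0.03) and NK-cell receptors in monocytes (-1.23). Single genes that turned were H2-Aa in NK (0.23 without barcodes of another lineage), Procr in cDC2 (-0.16 after thinning), Klk1 in cDC2 (0.98 where exactly 1 rule was met, 1.13 without barcodes of another lineage) and, without the 2 highest barcodes, Ccl12 (-5.19), Cxcl3 (0.42) and Cxcl1 (0.42) in cDC1; the cause was not tested. No paired analysis was possible because each treatment has 1 library and no test was run; no replicate could be left out. The number of barcodes limits CD4 T, Treg and both dendritic classes, where 1 barcode can set a ratio, and depth limits genes under the UMI minimum, which were not compared.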

Other observations

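A small set of genes stood on the same side in all 6 of CD8 T, NK, macrophages, monocytes, cDC2 and cDC1, without barcodes of another lineage. Of 3705 genes compared in all 6 classes, 6 were higher by a log2 ratio of at least 0.5 in every class and 1 was lower. Lmna, of the nuclear lamina, was higher by 1.81 in CD8 T, 1.3 in NK, 1.12 in macrophages, 1.99 in monocytes, 2.11 in cDC2 and 1.27 in cDC1. Siah2, a ubiquitin ligase, was higher by between 1.03 (NK) and 1.57 (cDC2), and Anxa1, an anti-inflammatory annexin, by between 0.57 (macrophages) and 1.59 (CD8 T). Mpnd and the non-coding transcripts Gm26825 and AY036118 completed the higher set. Ccl4 was the lower one, from -0.80 in CD8 T to -2.66 in cDC2. With 1 library per treatment, a difference shared by every class cannot be told apart from a difference between library preparations, and T-cell receptor V-segment counts also differed, at 1.24 UMIs per UMI of a beta-chain constant gene in the anti-PD1 and 2.39 in the IL15 superagonist library.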
